A study of Mus musculus with 8 samples.

Results

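Gene expression in the cerebral cortex was compared between mice given clothianidin and mice given vehicle. All animals were male and 12 weeks old, and they received 50 mg/kg/day of clothianidin, or the vehicle of 1% DMSO, for 2 weeks before the brain was dissected; the strain is not stated in the labels. The comparison rested on 4 of the 8 arrays of the series, 2 of exposed cortex (numbered 3 and 6 in their labels) and 2 of control cortex (numbered 1 and 6), and it covered the 19572 of 22206 probe sets that the platform annotation pairs with 1 gene symbol. The other 4 arrays, of the hippocampus with the same numbers in each arm, entered only to estimate the spread and to test whether a cortex difference differed from that in the hippocampus. Whether the 2 arrays of an arm stand for 2 animals is not stated in the labels, and every p-value below therefore reflects only how far these arrays vary, which may include technical variation alone. Levels are the deposited log2 values of each probe set, and differences are exposed minus control on that scale.

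Clothianidin is a neonicotinoid insecticide. It acts as an agonist of nicotinic acetylcholine receptors, the ligand-gated cation channels that acetylcholine opens, and binds those of insects far more tightly than those of mammals. In the cortex, nicotinic receptors built from alpha4 and beta2 subunits or from alpha7 alone sit on interneurons, on deep-layer pyramidal neurons and on thalamic and cholinergic axon terminals. Immediate early genes are transcribed within minutes of neuronal firing and calcium entry, without new protein synthesis, and are widely used as a readout of recent activity.

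The tissue label was checked against markers. Tbr1, a transcription factor of glutamatergic cortical neurons, lay at 15 to 15.83 in the 4 cortex arrays against 12.3 to 13.2 in the hippocampus. Cux2, of upper cortical layers, lay at 8.86 to 9.23 against 5.05 to 6.10. The dentate gyrus markers Prox1 and C1ql2 lay at 6.44 to 6.87 and 6.74 to 6.85 in cortex, against 11.3 to 12.0 and 11.7 to 11.9 in hippocampus. Fezf2, of cortical layer 5, overlapped between the tissues, at 10.89 to 11.85 in cortex and 10.84 to 11.36 in hippocampus. By Tbr1, Cux2, Prox1 and C1ql2 the 4 cortex arrays stood apart from the hippocampus in the direction of their label.

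Single arrays also stood apart from their group. Control 6 held a transcript of the choroid plexus, Ttr (transthyretin), at 15.4, while the other 3 cortex arrays lay at 4.17, 5.73 and 4.68. Control 1 was the highest cortex array in 20 of 39 immediate early genes (51.3%, against 30.1% of all tested probe sets). Exposed 3 was the highest in 13 of 16 meningeal and fibroblast genes (81.2%, against 20.8% of all tested). For the later counts of this kind, single cortex arrays were the highest in 20.8% to 30.1% of all tested probe sets. They were the lowest in 22.5% (control 1) to 27.9% (exposed 6). Among the 14804 probe sets tested, 386 (2.61%) differed at least 2-fold between the 2 control arrays and 588 (3.97%) between the 2 exposed arrays. Between 1 control and 1 exposed array the number ran from 429 (2.90%, control 6 and exposed 3) to 830 (5.61%, control 1 and exposed 6). The pairs from opposite arms thus overlapped in this count with the pairs from the same arm.

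**Figure D1:**
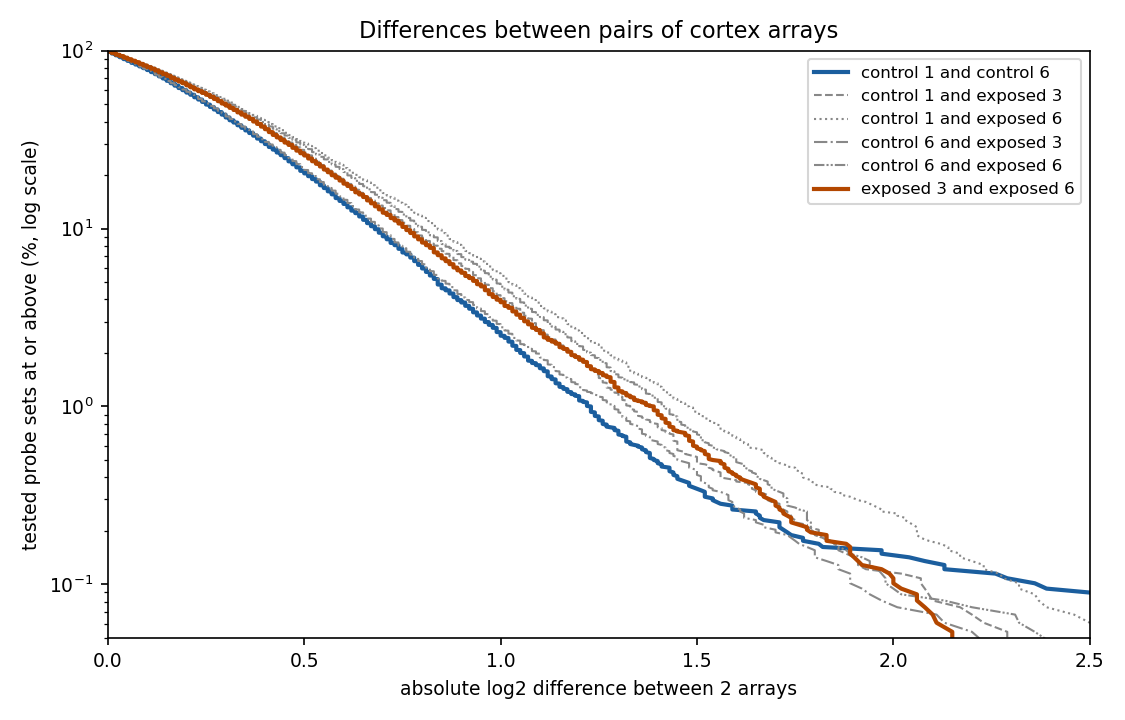
Share of the 14804 tested probe sets (vertical axis, percent, log scale) whose absolute log2 difference between 2 cortex arrays reached the value on the horizontal axis, for the pair of control arrays (blue), the pair of exposed arrays (orange) and the 4 pairs of opposite arms (grey). At a difference of 1, the control pair stood at 2.61%, the exposed pair at 3.97% and the pairs of opposite arms at 2.90% to 5.61%, and the horizontal axis ends at 2.5.

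One gene passed the test across the array. Nr4a2 (Nurr1), an orphan nuclear receptor that is induced as an immediate early gene and also marks neurons of the deep cortical layers and claustrum, fell in exposed cortex. Its log2 value was 13.40 and 13 in the control arrays and 11.06 and 11.33 in the exposed arrays. Both exposed arrays lay well below both controls, and the gap between arms was several times the gap within either arm. The group means were 13.2 ± 0.28 and 11.2 ± 0.19 (SD, n = 2 each), and the difference was -2.00 (SE 0.24, 95% interval -2.53 to -1.48), a 4.01-fold lower level (limma, Benjamini-Hochberg adjusted p = 0.0369). It was the only call among 14804 probe sets (0.00675%), with 0 calls for higher expression.

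In the hippocampus Nr4a2 had log2 values of 13.03 and 13.11 in the controls and 13.53 and 13.13 in exposed arrays, a difference of 0.26. The cortex difference minus the hippocampal one was -2.26 (limma interaction term, unadjusted p = 2.34e-05, adjusted p = 0.115), which did not pass after adjustment. Arrays of the 2 tissues share arm and number, and with these kept as a block the term passed for Nr4a2 (adjusted p = 0.0415), as it did without hippocampus control 6 (adjusted p = 0.0339). Without any 1 of the other arrays its adjusted p lay between 0.223 and 0.999 (limma). Leaving out any single cortex array ended the cortex call, with differences of -2.21 (without control 6) to -1.81 (without control 1) and adjusted p of 0.095 to 0.536. The call also ended without exposed hippocampus array 3 (adjusted p = 0.0712) or 6 (0.072), after quantile normalization (-1.90, adjusted p = 0.0729) and without the mean-variance trend (adjusted p = 0.231).

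Across all tested probe sets, 915 had an unadjusted p under 0.05 in the limma fit (6.18%), 335 of them higher (2.26%) and 580 lower (3.92%) in exposed cortex. After quantile normalization the split was 431 higher and 490 lower. Leaving out control 1 reduced the 915 to 479, with 233 higher and 246 lower, and leaving out exposed 6 reduced it to 568. The arrays of the 2 arms did not overlap in 5701 probe sets (38.5%), 2537 higher (17.1%) and 3164 lower (21.4%), and in the hippocampus this held for 4546 (30.7%). A difference of at least 1.5-fold without overlap was seen for 564 higher (3.81%) and 826 lower (5.58%) probe sets, and one of at least 2-fold was seen for 60 higher (0.405%) and 99 lower (0.669%). Apart from Nr4a2, every gene with a symbol described from here on had an adjusted p that rounded to 0.74 or more in this fit. Their unadjusted p-values order them and are not calls.

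The split between directions varied with the level of expression. In the highest 10% of tested probe sets, with cortex means of 12.34 to 19.87, 103 had an unadjusted p under 0.05 and a lower value and 24 a higher value. In the lowest 25%, with means of 2.67 to 5.22, the numbers were 63 lower and 85 higher. Over all tested probe sets the median difference was -0.03, and by level class it ran from 0.03 at the lowest levels to -0.07 at the highest.

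**Figure D2:**
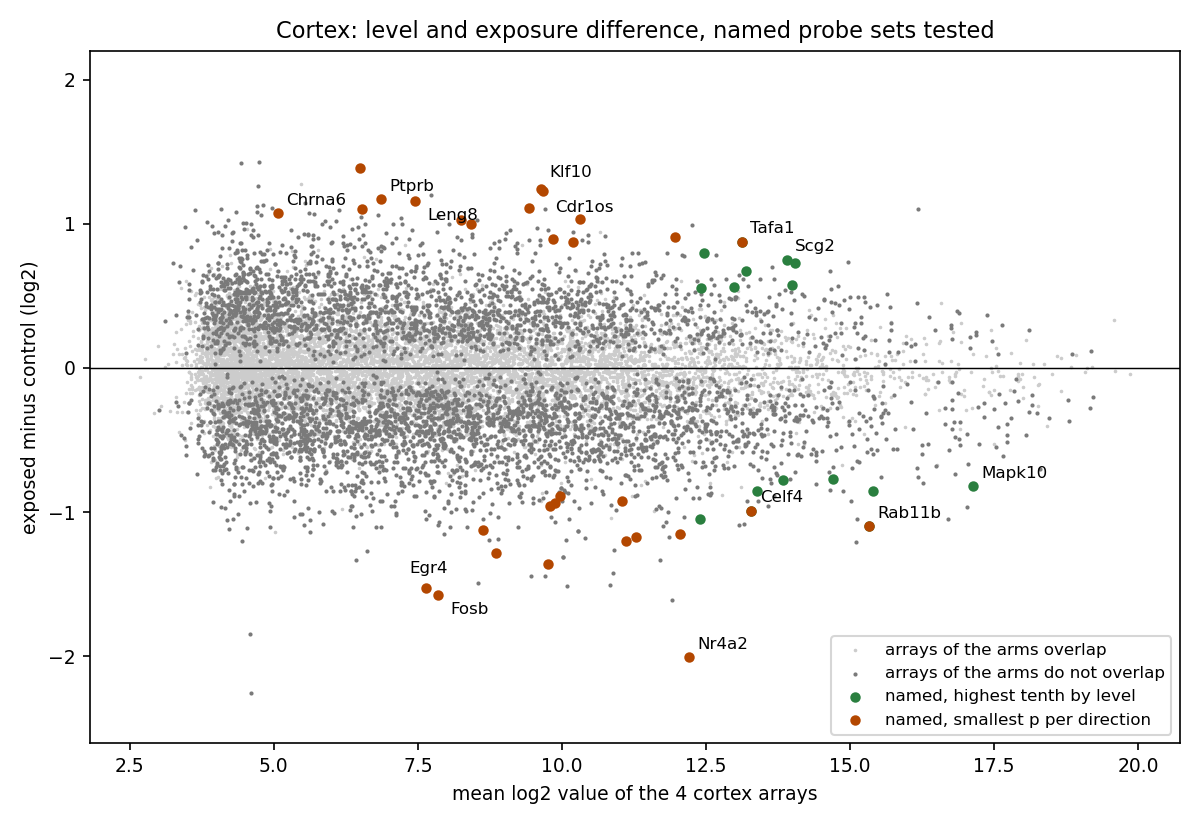
Exposed minus control (log2, vertical axis) against the mean log2 value of the 4 cortex arrays (horizontal axis) for every tested probe set with a symbol, in light grey where arrays of the arms overlap and in dark grey where they do not, with the genes of smallest p per direction (orange) and those of the highest 10% by level (green). Nr4a2 lies lowest of the labelled genes, at -2.00, and Ttr, at -4.58, lies outside the axis.

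The 15 genes of smallest p for lower expression held 2 more activity-regulated transcription factors beside Nr4a2. Egr4, a zinc finger factor of the EGR family, had log2 values of 8.77 and 8.04 in the controls and 7.03 and 6.73 in exposed arrays. Fosb, which pairs with JUN proteins in AP-1, had 8.35 and 8.92 against 7.14 and 6.98. For both genes every exposed array lay below every control array, which was a condition of their choice. The differences were -1.53 (SE 0.35) and -1.57 (SE 0.37), or 2.88-fold and 2.98-fold lower, with unadjusted p of 0.00105 and 0.00121 (limma, adjusted p = 0.74 for each). In the hippocampus the differences were -0.30 for Egr4 and -0.41 for Fosb.

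The promoters of these 3 genes are printed because the genes lead the list of immediate early genes by p-value. Each runs from 250 bases before to 50 bases after the RefSeq start site (GRCm38.p6), 5′ to 3′ on the gene's own strand. Capitals mark TGACG or its reverse complement CGTCA, the core of the cyclic AMP response element to which CREB binds. Nr4a2 lies at chr2:57123954-57124253, Egr4 at chr6:85513540-85513839 and Fosb at chr7:19309996-19310295, all on the minus strand.
Nr4a2: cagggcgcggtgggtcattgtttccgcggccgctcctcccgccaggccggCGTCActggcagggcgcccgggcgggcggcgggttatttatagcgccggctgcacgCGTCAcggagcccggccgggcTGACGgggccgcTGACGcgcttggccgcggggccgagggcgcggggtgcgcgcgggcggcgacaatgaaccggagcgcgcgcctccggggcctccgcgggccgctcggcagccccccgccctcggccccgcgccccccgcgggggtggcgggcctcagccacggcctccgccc
Egr4: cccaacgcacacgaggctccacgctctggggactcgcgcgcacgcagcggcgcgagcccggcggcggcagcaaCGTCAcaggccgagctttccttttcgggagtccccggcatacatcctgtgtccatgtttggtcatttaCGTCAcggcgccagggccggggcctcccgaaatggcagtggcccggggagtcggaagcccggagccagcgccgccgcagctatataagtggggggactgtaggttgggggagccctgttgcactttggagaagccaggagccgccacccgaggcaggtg
Fosb: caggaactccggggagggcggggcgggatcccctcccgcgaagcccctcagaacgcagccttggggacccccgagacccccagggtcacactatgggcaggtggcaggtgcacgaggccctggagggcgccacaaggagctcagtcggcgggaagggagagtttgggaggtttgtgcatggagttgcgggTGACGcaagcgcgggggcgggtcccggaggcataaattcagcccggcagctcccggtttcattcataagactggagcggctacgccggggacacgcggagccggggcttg

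This core occurred 4 times in this window of Nr4a2, 2 times in that of Egr4 and 1 time in that of Fosb. Of the 39 tested immediate early genes 31 matched the RefSeq promoter table, with 46 promoters in all, some of them overlapping windows at start sites of 1 gene. Of the 46, 28 (60.9%) held TGACG on either strand, and of the 31 genes 22 (71%) did so in at least 1 promoter. Among all 32851 promoters of 300 bases the share was 20.8%. The full palindrome TGACGTCA, which contains this core, was in 3 of the 46 (6.52%, against 1.79% of all promoters). The CArG box bound by serum response factor was in 5 (10.9% against 1.63%), of which 4 belong to Egr2 and 1 to Dusp5, so in 2 of 31 genes (6.45%). The AP-1 site TGANTCA was in 2 (4.35% against 7.81%). Egr1 and Arc were among the genes without an entry, and sites outside the window were not searched. These are matches of letters and not measured binding.

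Among all 39 tested immediate early genes (of 41 listed), the group mean was lower in exposed cortex for 29 and higher for 9, with 1 tie, beside 53% of all tested probe sets with a lower and 46.5% with a higher mean. The unadjusted p was under 0.05 for 8, all lower (beside 3.92% of all tested), and the median difference was -0.43 beside -0.03. Arrays of the 2 arms did not overlap for 11 (28.2%, beside 38.5% of all tested), 9 lower and 2 higher. The difference was smaller without control 1: then 21 were lower and 18 higher with a median of -0.20. Without control 6 the median was -0.66. The list was chosen with these results known and is described without a test.

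The nuclear receptor family of Nr4a2 showed 3 different patterns over the arrays. Nr4a3 (Nor1) had log2 values of 13.59 and 13.60 in the controls and 12.94 and 12.92 in exposed arrays, so both arms were tight and apart (-0.67, SE 0.24, unadjusted p = 0.0166 in limma). Nr4a1 (Nur77) had 14.67 and 12.38 in the controls and 12.50 and 12.90 in exposed arrays. The 2 control arrays of Nr4a1 lay on either side of both exposed arrays, and its difference of -0.83 (SE 0.52) turned to 0.32 without control 1.

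The other members differed in how far their arms lay apart. Arc, whose protein acts at synapses in AMPA receptor trafficking, had log2 values of 13 and 11.68 in the controls and 11.58 and 10.97 in exposed arrays (-1.06, SE 0.38, unadjusted p = 0.0156). Its lower control array nearly touched its higher exposed array. Fosl2, another AP-1 subunit, had 7.83 and 7.47 against 6.64 and 6.95 (-0.86, SE 0.30, unadjusted p = 0.0151). Ptgs2, the inducible cyclooxygenase, had 7.57 and 8.67 against 7.53 and 7.12, with control 1 barely above exposed 3. Egr1 had 16.72 and 16.51 against 16.30 and 15.88 (-0.53, SE 0.22, unadjusted p = 0.0324).

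Several classical members depended on control 1. Fos had log2 values of 11.51 and 8.67 in the controls and 9.31 and 9.14 in exposed arrays, and its difference of -0.86 (SE 0.64) became 0.56 without control 1. Npas4, a neuronal factor induced by calcium entry, had 10.04 and 6.73 against 8.14 and 7.04, and its difference of -0.80 (SE 0.78) became 0.86. In both genes the 2 control arrays enclosed both exposed arrays. Ccn1, Junb, Ier2 and Btg2 were likewise among the 8 genes with the largest gap between the control arrays. Ccn1, a matricellular protein gene, stood at 10.72 in control 1 and 6.57 in control 6, with 7.97 and 7.82 in the exposed arrays. Nr4a2, Egr4 and Fosb did not follow this pattern, and Fosb was lower in control 1 than in control 6. Members with no lower mean included Dusp6 at 0.17, Per1 at 0.05, Jun at 0.30 and Csrnp1 at 0.53.

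**Figure D3:**
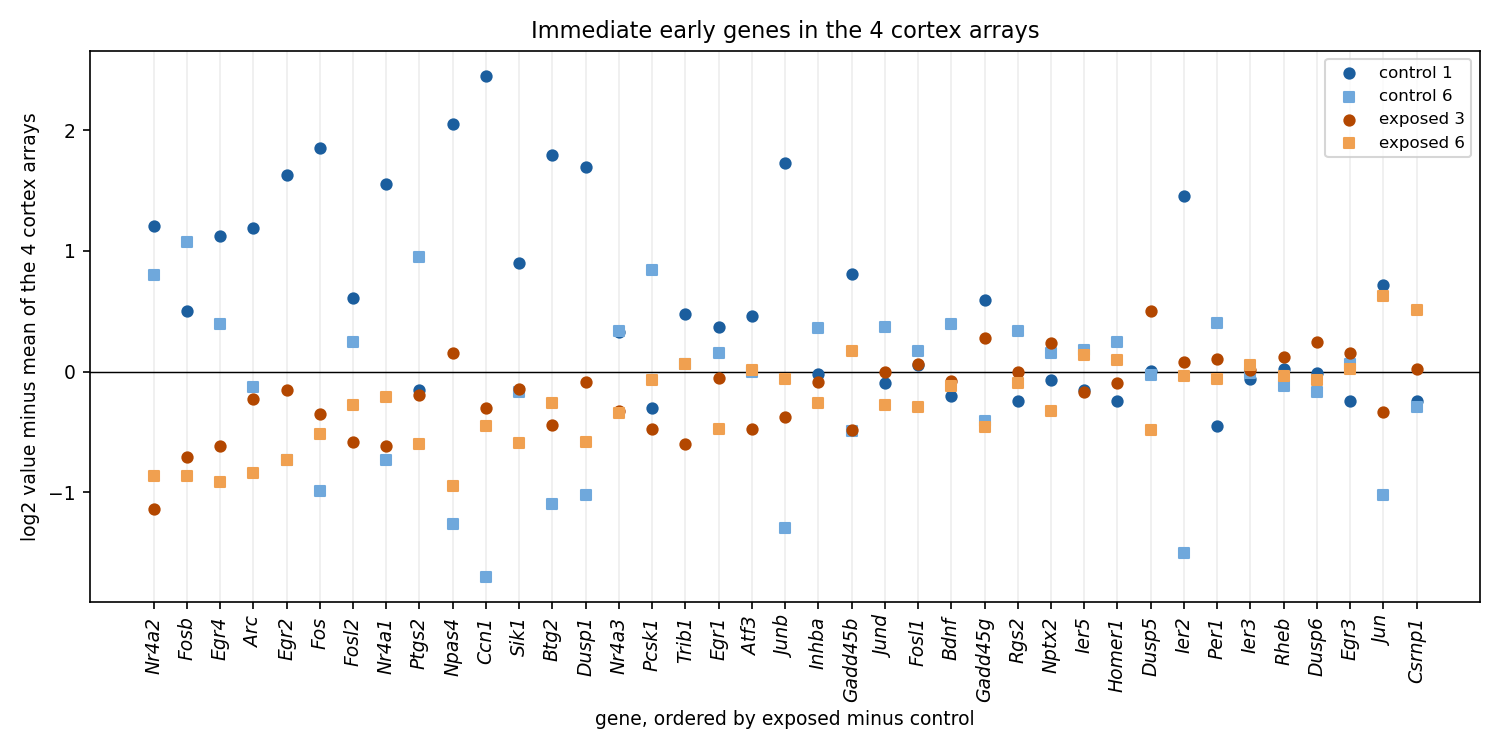
Log2 value minus the mean of the 4 cortex arrays (vertical axis) for the 39 tested immediate early genes (horizontal axis, ordered by exposed minus control), with control 1 as blue circles, control 6 as light blue squares, exposed 3 as dark orange circles and exposed 6 as light orange squares. Nr4a2, Fosb and Egr4 have both control arrays above both exposed arrays, while for Fos, Npas4, Ccn1 and Junb control 1 is the highest and control 6 the lowest array.

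The receptors that clothianidin binds were measured by 16 nicotinic subunit probe sets, of which 5 passed the filter on low values, a mean over all 8 arrays of at least 3.937. The other 11 lay between 2.47 and 4 in every cortex array, near or below the filter limit. Chrna4, the alpha4 subunit, had log2 values of 12.18 and 12.13 in the controls and 12.04 and 12.09 in exposed arrays, a difference of -0.09 (SE 0.23, 95% interval -0.60 to 0.42). Its sign turned to 0.02 after quantile normalization. Chrnb2, the beta2 subunit, had 8.77 and 8.10 against 8.16 and 8.32, with overlapping arms and a difference of -0.20 (SE 0.31, 95% interval -0.87 to 0.48) that became 0.14 without control 1. The subunits of the main heteromeric receptor of cortex thus differed by less than their standard errors.

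Chrna7, the subunit of the homomeric alpha7 receptor, had log2 values of 8.47 and 7.89 in the controls and 7.42 and 7.37 in exposed arrays. Both exposed arrays lay below both controls, and the difference was -0.79 (SE 0.34, 1.72-fold lower, unadjusted p = 0.0383, limma adjusted p = 0.801). Chrna6, a subunit best known from midbrain dopamine neurons, had 4.50 and 4.56 against 5.81 and 5.40, a difference of 1.07 (SE 0.29, 2.11-fold higher, unadjusted p = 0.00301) close to the low end of the scale. In the hippocampus the differences were -0.28 for Chrna7, 0.65 for Chrna6 and 0.88 for Chrna4. Chrna4 differed between the tissues by -0.97 at an unadjusted p of 0.0127. Chrna5, an accessory subunit, had 4.05 and 3.83 in the controls and 3.26 and 3.58 in exposed cortex.

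Of 15 other tested cholinergic genes, 6 had a higher and 9 a lower mean, with a median of -0.15 (-0.02 without control 1, -0.10 without control 6 and -0.08 without exposed 6). The only unadjusted p under 0.05 belonged to Bche, the butyrylcholinesterase that also hydrolyses acetylcholine. It had log2 values of 4.44 and 4.47 in the controls and 5.28 and 5.12 in exposed arrays (0.75, SE 0.33, unadjusted p = 0.0449), and differed by 1.00 in the hippocampus. Ric3, a chaperone of nicotinic receptor assembly, and Lynx1, a membrane-bound modulator of these receptors, had differences of -0.33 and -0.27.

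The genes with the smallest p-values for higher expression came from several functions. By the conditions set for naming (unadjusted p under 0.05, at least 1.5-fold, no overlap between arms and both means above the filter limit), 275 probe sets were higher and 488 lower, of which 41 and 56 have no symbol or a predicted gene's symbol. The 15 of smallest p per direction are described next. Cdr1os, the locus that hosts the neuronal circular RNA Cdr1as, led the higher genes with log2 values of 8.91 and 9.20 in the controls and 10.18 and 10.38 in exposed arrays. The arms lay far apart and the arrays of each arm close together, with a difference of 1.23 (SE 0.24, 2.34-fold, unadjusted p = 0.000306, limma adjusted p = 0.74). The probe set does not tell which of the transcripts of this locus it detects.

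Klf10, a Kruppel-like repressor induced by TGF-beta, had log2 values of 8.87 and 9.15 in the controls and 9.95 and 10.55 in exposed arrays (1.24, SE 0.27, unadjusted p = 0.000703). Ptprb, the endothelial receptor phosphatase that acts on TIE2 and VE-cadherin, had 6.44 and 6.12 against 7.39 and 7.51 (1.17, SE 0.27). Neither gene's arms overlapped, as the choice required, and their hippocampal differences were 0.51 and 0.99. Leng8, a nuclear RNA-processing factor, had 6.78 and 6.95 against 8 and 8.04 in cortex, and a larger difference of 1.67 in the hippocampus beside 1.15 here.

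Synaptic and adhesion genes were also among the 15 higher genes. Dgki, a diacylglycerol kinase of neurons, had log2 values of 11.42 and 11.59 in the controls and 12.42 and 12.41 in exposed arrays (0.91, SE 0.21). Tenm2, a teneurin that binds latrophilins across the synapse, had 9.59 and 9.99 against 10.62 and 11.03 (1.03, SE 0.25). Gabrg1, a gamma subunit of GABA-A receptors, had 9 and 8.76 against 10.24 and 9.74 (1.11, SE 0.27). All 3 were separated between the arms, as the choice required, and in the hippocampus they differed by 0.52, 0.36 and 0.82. Tafa1, a secreted neurokine-like protein, had 12.68 in both control arrays and 13.78 and 13.33 in the exposed arrays (0.88, SE 0.23), against -0.19 in the hippocampus.

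The remaining higher genes spanned mitochondrial and trafficking functions. Mrpl3, a protein of the large mitochondrial ribosomal subunit, differed by 0.89 (SE 0.23), and Gtpbp10, a GTPase of mitochondrial ribosome assembly, by 1.00 (SE 0.26). Slc30a7, a zinc transporter of the Golgi, differed by 1.02 (SE 0.27). Plekhf2, an endosomal protein, had the largest difference of the 15, 1.39 (SE 0.36), with 6.01 and 5.59 in the controls and 7.00 and 7.37 in exposed arrays. Rnf114, a ubiquitin ligase, and Phf20l1, a reader of methylated lysine, differed by 0.88 and 1.10. Chrna6, described above, completes the 15.

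Among the lower genes, those at high level included regulators of RNA and membrane traffic. Celf4, a neuronal RNA-binding protein that controls mRNA of synaptic genes, had log2 values of 14.03 and 13.54 in the controls and 12.81 and 12.78 in exposed arrays (-0.99, SE 0.23, 1.99-fold lower, unadjusted p = 0.00106, limma adjusted p = 0.74). Rab11b, a GTPase of recycling endosomes, had 16.11 and 15.65 against 15.13 and 14.44 (-1.09, SE 0.27). Hnmt, which inactivates histamine by methylation in the brain, had 11.50 and 11.52 against 10.59 and 10.58. Each arm of Hnmt varied by only 0.02 or less and the difference was -0.93 (SE 0.22), with -0.67 in the hippocampus.

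Genes of the endoplasmic reticulum and Golgi stood among the same 15. Emc10, a subunit of the membrane protein insertion complex, had log2 values of 11.89 and 11.85 in the controls and 10.91 and 10.48 in exposed arrays (-1.18, SE 0.28). Slc35b4, a nucleotide-sugar transporter, had 11.73 and 11.70 against 10.93 and 10.10 (-1.20, SE 0.28), and without exposed 6 its difference was -0.79. Lrrc59, a ribosome-binding protein of the endoplasmic reticulum, had 12.59 and 12.66 against 11.77 and 11.18 (-1.15, SE 0.29). In all 3, exposed 6 was the lowest array. Exoc3, of the exocyst, differed by -0.89 (SE 0.23) and Vac14, a scaffold of phosphoinositide synthesis on endosomes, by -1.12 (SE 0.29), which became -0.74 without control 1.

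Fsd1, a microtubule-associated protein, had log2 values of 10.52 and 10.35 in the controls and 9.44 and 8.71 in exposed arrays (-1.36, SE 0.32). Acss1, which makes acetyl-CoA from acetate in mitochondria, had 9.86 and 9.13 against 8.53 and 7.89 (-1.29, SE 0.33), with -0.79 in the hippocampus. Dnajb1, an HSP40 co-chaperone, differed by -0.94 (SE 0.24) and Paqr4, a membrane protein of the progestin and adipoQ receptor family, by -0.96 (SE 0.24). No array of one arm reached the other arm in these 4 genes, as the choice required.

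**Figure D4:**
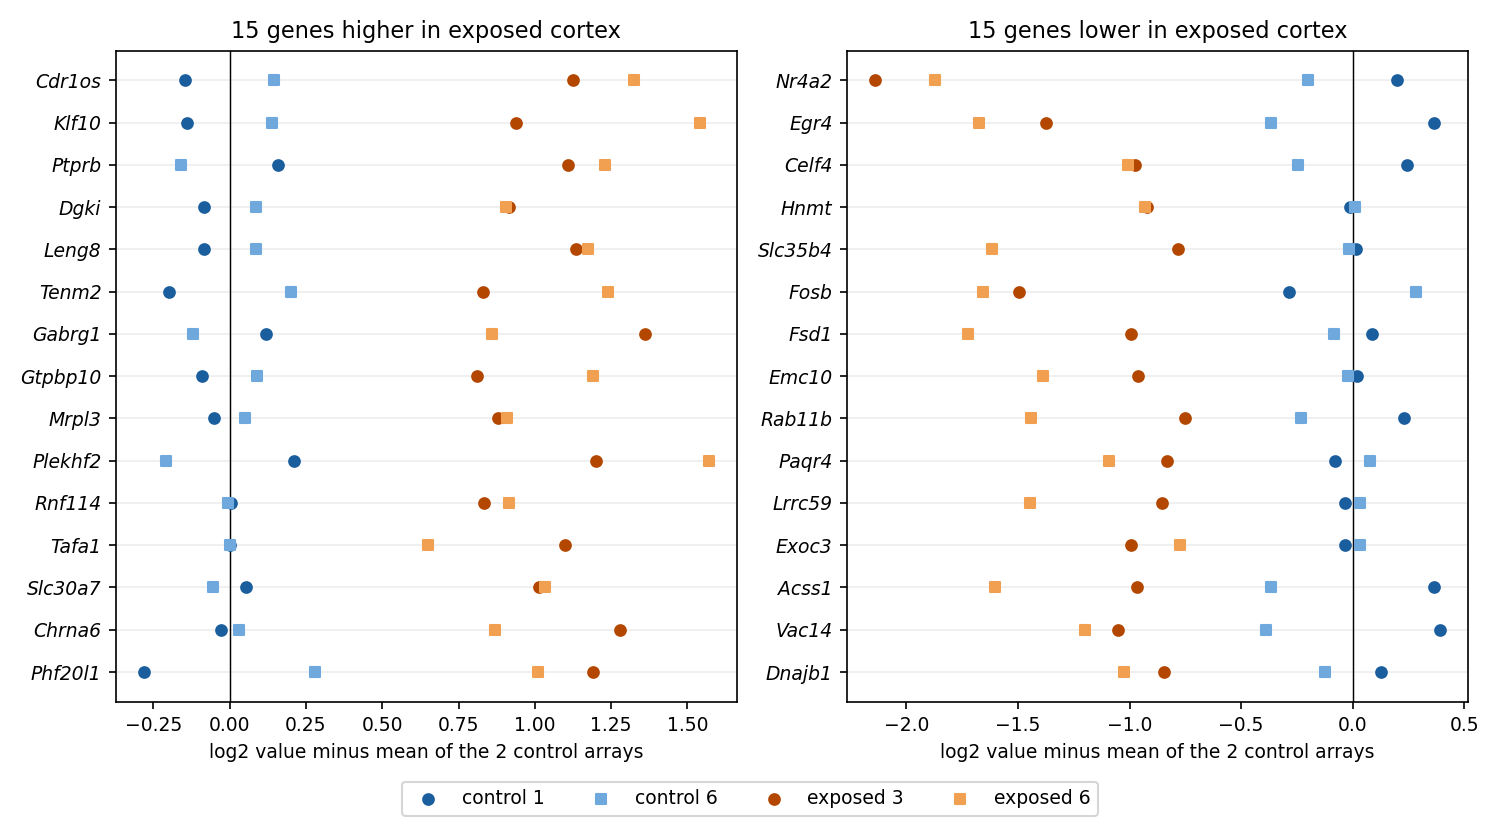
Log2 value minus the mean of the 2 control arrays (horizontal axis) in each of the 4 cortex arrays (control 1 and 6 in blue, exposed 3 and 6 in orange) for the 15 genes of smallest p per direction. Nr4a2 lies lowest, with exposed values of 11.06 and 11.33 against 13.40 and 13 in the controls, and no gene shown has overlapping arms because non-overlap was a condition of the choice.

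Abundant transcripts were examined separately, since their values lie far from the floor of the array. Conditions other than the fold were met by 24 higher and 103 lower probe sets of the highest 10% by level, and the 8 of smallest p per direction include Tafa1, Celf4 and Rab11b from above. Scg2, a granin from which secretoneurin is cut, had log2 values of 13.43 and 13.62 in the controls and 14.24 and 14.31 in exposed arrays (0.75, SE 0.22, unadjusted p = 0.00608). Tmem106b, a lysosomal membrane protein, had 13.59 and 13.79 against 14.26 and 14.57 (0.72, SE 0.25). The other higher ones were Rbm39, a splicing factor (0.67, or 0.42 without control 1), Kat6b, a histone acetyltransferase (0.80), Sfxn5, a mitochondrial sideroflexin (0.57, or 0.38 without control 1), Btf3l4 (0.56) and Cibar1 (0.55).

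The lower abundant genes included synaptic and signalling proteins. Mapk10 (JNK3, the brain-enriched JUN kinase) had log2 values of 17.85 and 17.25 in the controls and 16.90 and 16.56 in exposed arrays (-0.82, SE 0.24), which became -0.52 without control 1. Cacng3, a transmembrane AMPA receptor regulatory protein, had 15.87 and 15.77 against 15.24 and 14.69 (-0.85, SE 0.25), beside 0.21 in the hippocampus. Brinp1 had 15.23 and 14.96 against 14.45 and 14.20 (-0.77, SE 0.21). Exposed 6 was the lowest array in all 3. Foxp1, a transcription factor of cortical projection neurons, differed by -0.78 (-0.52 without exposed 6), Acot7, an acyl-CoA thioesterase of neurons, by -0.85, and Cyb5r3, a cytochrome b5 reductase, by -1.04 in cortex and -1 in hippocampus.

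No probe set passed the test of a difference between the tissues after adjustment (0 of 14804), while 511 (3.45%) had an unadjusted p under 0.05. With arrays of 1 arm and number kept as a block there were 3 calls, Nr4a2 and 2 probe sets without a symbol. Leaving out hippocampus control 1 gave 1 call, without a symbol. Leaving out hippocampus control 6 gave 30, with Nr4a2 and 8 choroid plexus genes of the marker list among them. The control array then left, hippocampus control 1, held Ttr at 19.51, against 6.39 to 7.76 in the other hippocampus arrays, and the part of this in the calls was not tested. Among the genes named for cortex, Nr4a2 had the smallest p for this term. Next came Tet2, a dioxygenase that oxidises 5-methylcytosine, at 7.42 and 7.18 in the controls and 6.42 and 6.77 in exposed cortex (-0.70, against 0.99 in hippocampus, unadjusted p = 0.00118 for the difference). Coro6 (-0.80 against 0.92), Rell1 (-0.92 against 0.63) and Sytl2 (-0.88 against 0.70) were lower in exposed cortex and higher in exposed hippocampus. Metap1d (1.00 against -0.73), Ccdc148 (0.79 against -0.87), Meig1 (0.97 against -0.53) and Gtpbp10 (1.00 against -0.26) ran the other way. Without control 1 the cortex difference of Sytl2 was -0.57, and without control 6 that of Meig1 was 0.56.

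Gene groups were described by counts and medians over 47 lists, of which 44 had at least 5 tested genes. The median difference lay within 0.15 of 0 in 30 of the 44, below -0.15 in 11 and above 0.15 in 3. For comparison, 53% of all tested probe sets had a lower and 46.5% a higher mean. The arms did not overlap in 38.5%, and 6.18% had an unadjusted p under 0.05 in the limma fit. Markers of cell types are included in the lists, and in bulk tissue fewer cells of a type and less RNA per cell cannot be told apart.

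**Figure D5:**
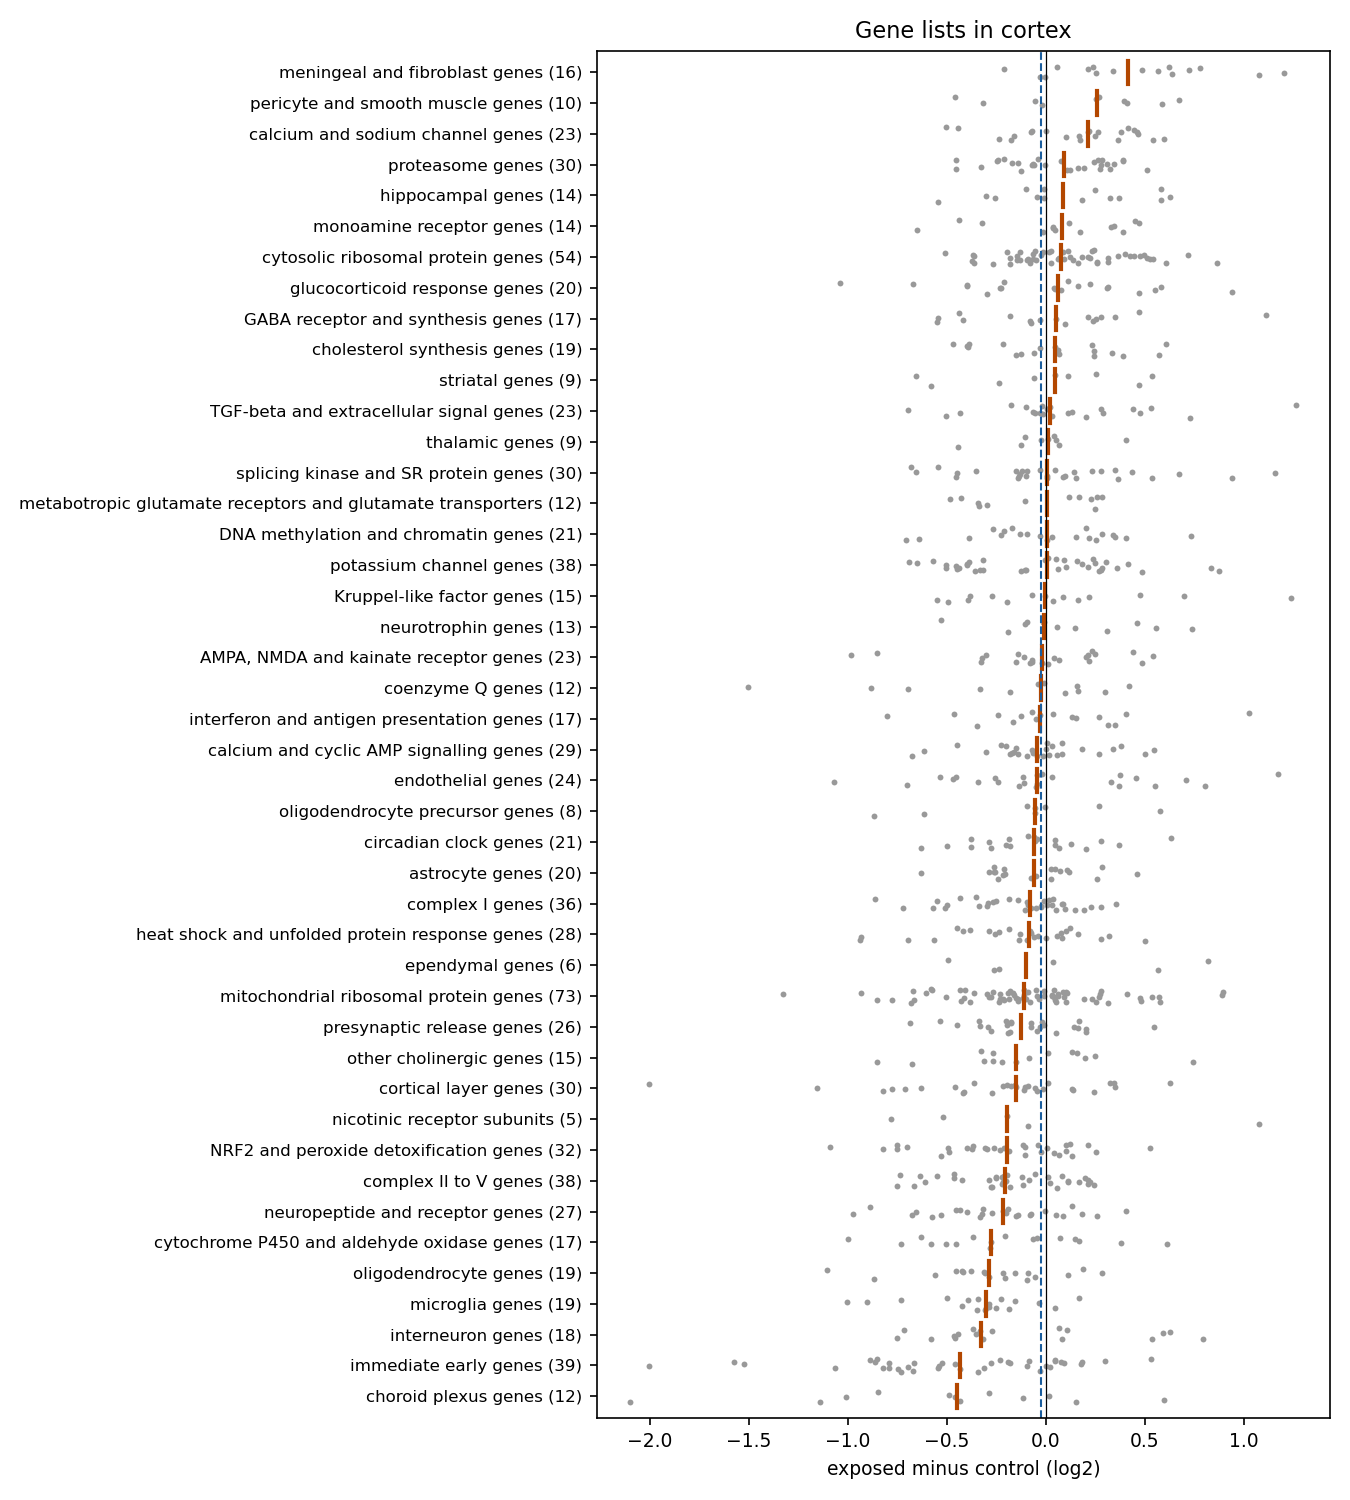
Exposed minus control (log2, horizontal axis) for the tested genes (dots) of each of the 44 gene lists with at least 5 tested genes (number in brackets), with list medians as orange bars and the median of all tested probe sets, -0.03, as a dashed line. Medians ran from -0.45 (choroid plexus) and -0.43 (immediate early genes) to 0.41 (meningeal and fibroblast genes), and Ttr, at -4.58, is drawn at the left edge.

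Lists of inhibitory and peptidergic signalling were mixed. Of 18 interneuron genes 11 had a lower and 7 a higher mean, with a median of -0.33 (-0.10 without exposed 6). Vip, the peptide of a disinhibitory interneuron class, had log2 values of 8.91 and 9.35 in the controls and 10.25 and 9.60 in exposed arrays (0.80, SE 0.35, unadjusted p = 0.0431). Reln, a secreted glycoprotein of layer 1 and neurogliaform interneurons, had 7.16 and 7.51 against 8.15 and 7.77 (0.62, SE 0.28, unadjusted p = 0.0449). Sst and Npy ran the other way, at 16.73 and 16.40 against 15.96 and 15.66 (-0.75, SE 0.36) and at 11.18 and 10.94 against 10.64 and 10.05 (-0.72, SE 0.40). Neither Sst nor Npy had an unadjusted p under 0.05, and the arms of these 4 genes did not overlap.

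Neuropeptide and receptor genes had a lower mean in 21 of 27 and a higher one in 6, with a median of -0.21. Among all tested probe sets 53% had a lower mean. The unadjusted p was under 0.05 for 3, all lower (beside 3.92% of all tested). Npy1r, the Y1 receptor of neuropeptide Y, had log2 values of 12.01 and 11.43 in the controls and 10.82 and 10.84 in exposed arrays (-0.89, SE 0.25, unadjusted p = 0.00393), against 0.12 in the hippocampus. Npy5r, the Y5 receptor, had 6.29 and 5.89 against 5.45 and 5.38 (-0.68, SE 0.30). Pdyn, the precursor of dynorphin, had 6.92 and 7.06 against 6.35 and 6.32 (-0.66, SE 0.30). In each of the 3 both exposed arrays lay below both controls. Cckbr, the main cholecystokinin receptor of cortex, differed by -0.97 (SE 0.48, unadjusted p = 0.0634), against 0.84 in the hippocampus.

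Ion channel and excitatory receptor lists differed in their medians. Calcium and sodium channel genes had a higher mean in 15 of 23, with a median of 0.21. Exposed 6 was the highest array in 14 of the 23, and the median was 0.03 without it and 0.39 without exposed 3. The member of smallest p was Cacna2d3, an auxiliary calcium channel subunit, at 9.88 and 10.17 in the controls and 10.38 and 10.86 in exposed arrays (0.59, SE 0.26). Potassium channel genes were split at 19 higher and 19 lower, with Kcnk9 at 0.84 and Kcns2 at 0.88 on one side and Kcnn1 at -0.65 on the other. Among 23 AMPA, NMDA and kainate receptor genes, 11 had a higher and 12 a lower mean, with a median of -0.02. The unadjusted p was under 0.05 for 2 in the limma fit, both lower (beside 6.18% of all tested in either direction). Both were auxiliary AMPA receptor subunits, Cacng3 (above) and Cnih3, at 11.85 and 11.02 against 10.78 and 10.12 (-0.98, SE 0.34). Grin2b and Grin2a ran the other way, at 0.54 and 0.485.

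Presynaptic release genes had a lower mean in 19 of 26 (median -0.13, or -0.07 without control 1, -0.23 without control 6, 0.03 without exposed 3 and -0.21 without exposed 6), led by Vamp1, a synaptobrevin, at 15.11 and 14.99 in the controls and 14.37 and 14.36 in exposed arrays (-0.68, SE 0.23). Among 29 calcium and cyclic AMP signalling genes, 12 had a higher and 16 a lower mean. Their median was -0.045, and -0.14 to 0.115 without single cortex arrays. The unadjusted p was under 0.05 for 3 of them in the limma fit, all lower (beside 3.92% of all tested). Crtc1, the CREB coactivator that enters the nucleus on calcium signals, had 13.34 and 12.92 against 12.42 and 12.49 (-0.67, SE 0.22). Prkaca, the catalytic subunit of protein kinase A, had 12.92 and 13.03 against 12.39 and 12.33 (-0.62, SE 0.21), and Pde2a, a cyclic nucleotide phosphodiesterase, differed by -0.45. Creb1 itself had 9.13 and 8.74 against 9.35 and 9.61, a difference of 0.55. These 4 genes had no overlap between the arms.

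Cortical layer genes, which include Nr4a2, had a lower mean in 22 of 30 (median -0.15, or -0.30 without exposed 3 and -0.10 without exposed 6). Among all tested probe sets 53% had a lower mean. Arms did not overlap for 12 of the 30 (40%, beside 38.5% of all tested). The unadjusted p was under 0.05 for 5, all lower (beside 3.92% of all tested). Besides Nr4a2 and Foxp1 these were Fezf2, which specifies corticospinal neurons of layer 5, at 11.62 and 11.85 against 11.16 and 10.89 (-0.71, SE 0.25), Deptor, an inhibitor of mTOR enriched in layer 5, at 8.68 and 8.38 against 7.87 and 6.88 (-1.16, SE 0.46), and Foxp2, of layer 6, at 6.86 and 5.95 against 5.23 and 5.93 (-0.83, SE 0.37). The lower control and the higher exposed array of Foxp2 nearly touched. In the hippocampus Fezf2 differed by -0.06, Deptor by 0.15 and Foxp2 by 0.72.

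Mitochondrial lists had members far from their medians. Of 38 genes of complexes II to V, 26 had a lower mean (median -0.20, or -0.03 without exposed 6, -0.10 without control 6 and -0.35 without exposed 3), and exposed 6 was the lowest array in 24 of the 38. Cox8a stood at -0.73 (SE 0.31) and Uqcrb at -0.67 (SE 0.29). Complex I genes had a median of -0.08 (0.05 without exposed 6), led by Ndufa10 at 13.07 and 12.96 against 12.33 and 11.97 (-0.86, SE 0.34). Coq5, a methyltransferase of coenzyme Q synthesis, had 12.14 and 11.05 in the controls and 10.54 and 9.64 in exposed arrays, a difference of -1.51 (SE 0.47, unadjusted p = 0.00765), while the 12 coenzyme Q genes had a median of -0.03. Of 73 mitochondrial ribosomal protein genes 28 had a higher and 45 a lower mean, with a median of -0.11. The unadjusted p was under 0.05 for 6 in the limma fit (beside 6.18% of all tested), 4 lower and 2 higher. Members ran from Mrpl34 at -1.33 (SE 0.35) and Mrps17 at -0.94 (SE 0.28) to Mrpl13 at 0.89 (SE 0.27) and Mrpl3 at 0.89.

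Cytosolic ribosomal proteins numbered 32 higher and 22 lower, and their median was 0.08. They moved with single arrays, since control 1 was the lowest array in 30 of 54 and exposed 6 in 21, and the median was 0.26 without control 6, 0.29 without exposed 6 and -0.11 and -0.12 without control 1 or exposed 3.

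Lists of detoxification and stress responses had mostly lower means. Of 32 NRF2 and peroxide detoxification genes 22 were lower (median -0.20, or -0.09 without exposed 6 and -0.37 without exposed 3), with Txnrd2, the mitochondrial thioredoxin reductase, at 8.71 and 8.07 in the controls and 7.5 and 7.10 in exposed arrays (-1.09, SE 0.40). Of 17 cytochrome P450 and aldehyde oxidase genes 12 were lower (median -0.28, or -0.16 without control 6), with Cyp2s1 at 6.43 and 6.15 against 5.35 and 5.23 (-1, SE 0.32, unadjusted p = 0.0082). Aox1, an aldehyde oxidase of the family that reduces neonicotinoids in liver, differed by 0.38 at levels of 4.16 to 4.8. Of 28 heat shock and unfolded protein response genes 18 were lower, with a median of -0.09. Without control 1 this list was split at 14 higher and 14 lower, with a median of 0.0025. Hspb1 differed by -0.94 (SE 0.33). Xbp1, a transcription factor of the unfolded protein response, had 13.01 and 13.31 against 12.63 and 12.30 (-0.70, SE 0.23), and differed by -1.22 in the hippocampus.

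Regulatory genes outside these pathways also had single members apart. Smoc1, an extracellular inhibitor of BMP signalling, had log2 values of 4.05 and 4.15 in the controls and 5.76 and 4.97 in exposed arrays (1.26, SE 0.34, unadjusted p = 0.00325). Smad3, a TGF-beta signal transducer, had 9.79 and 9.72 against 9.17 and 8.95 (-0.69, SE 0.24). Srsf5, an SR splicing factor, had 10.04 and 9.42 against 10.40 and 10.94 (0.94, SE 0.33). H2-T23, a nonclassical class I molecule, had 7.80 and 8.22 against 9.24 and 8.83 (1.02, SE 0.36). Hdac3, a histone deacetylase, differed by 0.73 (SE 0.26) and Ntrk3, the receptor of neurotrophin-3, by 0.73 (SE 0.31). The arms of these 6 genes did not overlap, and each list's median lay between -0.03 and 0.02.

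Oligodendrocyte and microglia lists had lower means in most of their genes, none of which passed after adjustment, and the astrocyte list was split. Oligodendrocyte genes had a lower mean in 16 of 19 (median -0.29, and -0.22 to -0.34 without single cortex arrays). Arms did not overlap for 13 (68.4%, beside 38.5% of all tested), 11 lower and 2 higher. This share was 71.4% in the hippocampal and 62.5% in the endothelial marker list, whose medians were 0.085 and -0.05. Exposed 6 was the lowest array for 12 of the 19 oligodendrocyte genes. Sox10, the lineage transcription factor, had log2 values of 9.21 and 8.59 in the controls and 8.07 and 7.52 in exposed arrays (-1.11, SE 0.40, unadjusted p = 0.0168), and Olig2 had 10.12 and 9.34 against 9.04 and 8.68 (-0.87, SE 0.35, unadjusted p = 0.0271). Both exposed arrays lay below both controls for each. Mbp had 18.34 and 18.47 against 18.18 and 18.00, and Cldn11 differed by -0.56. The 3 members with higher means were Mog, Aspa and Myrf, by 0.11, 0.18 and 0.28.

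Microglia genes had a lower mean in 17 of 19, with a median of -0.30. Arms did not overlap for 9 (47.4%, beside 38.5% of all tested), all lower. Ly86, a partner of the RP105 receptor, had log2 values of 9.16 and 9.34 in the controls and 8.75 and 7.74 in exposed arrays (-1.01, SE 0.39, unadjusted p = 0.0231), and Selplg had 10.20 and 10.06 against 9.19 and 9.26 (-0.91, SE 0.27, unadjusted p = 0.00546). The homeostatic markers P2ry12 and Tmem119 differed less, by -0.18 and -0.35. Exposed 6 was the lowest array for 12 of the 19, and without it 18 of 19 were lower with a median of -0.17. Astrocyte genes had 11 lower and 9 higher members with a median of -0.06 (10 and 10 with a median of 0 without exposed 6, and -0.14 without exposed 3), and Gfap, at 9.30 and 9.97 in the controls and 10.27 and 9.92 in exposed arrays, had overlapping arms.

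Endothelial genes were spread widely around a median of -0.05, with a higher mean in 9 and a lower one in 15 of 24. The unadjusted p was under 0.05 for 5 in the limma fit (beside 6.18% of all tested), 3 higher and 2 lower. Eng, a TGF-beta co-receptor of endothelium, had log2 values of 8.34 and 8.48 in the controls and 7.20 and 7.48 in exposed arrays (-1.07, SE 0.30, unadjusted p = 0.00378), while Ptprb (above), Slco1a4, an organic anion transporter of the blood-brain barrier (0.70, SE 0.24), and Esam, a tight junction adhesion molecule (0.80, SE 0.36), were higher. Their arms did not overlap. Bsg, the other lower member with such a p, differed by -0.70, and by -0.345 to -1.055 without single arrays.

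Markers of tissues that border the cortex moved with single arrays. Meningeal and fibroblast genes had a higher mean in 13 of 16 with a median of 0.41, but exposed 3 stood 0.77 above the cortex mean in the median gene, while exposed 6 stood at -0.17 and the controls at -0.21 and -0.10. Without exposed 3 the list was split at 8 higher and 8 lower with a median of 0.00, and without exposed 6 the median was 0.99. Mgp, a matrix protein gene, had log2 values of 6.79 and 7.45 in the controls and 8.65 and 7.99 in exposed arrays (1.20, SE 0.48, unadjusted p = 0.027), so exposed 6 also lay above both controls. For Ptgds, prostaglandin D synthase, and Fmod, fibromodulin, the exposed arrays lay on either side of the controls, at 17.93 and 15.91 and at 9.75 and 7.5. Pericyte and smooth muscle genes had a median of 0.26, which was 0.07 without control 1.

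Choroid plexus genes had the lowest median of the lists, -0.45, and control 6 was the highest array for 8 of 12. The median was -0.80 without control 1. Without control 6 it was 0.09 and Ttr turned from -4.58 (SE 3.35) to 1.03. No member of this list had an unadjusted p under 0.05. The part of these bordering tissues in the differences of other genes was not tested. Striatal genes had a median of 0.05 and also moved with single arrays, to -0.29 without control 1 (2 higher, 7 lower) and 0.21 without control 6 (7 higher, 2 lower), and control 6 was the highest array in 5 of 9. The thalamic list had a median of 0.01, and -0.08 to -0.01 without single cortex arrays.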

How the data were processed

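Total RNA from cortex and hippocampus was amplified, labelled with biotin and hybridised to 1-colour Affymetrix arrays, per the labels' protocols. The authors deposited log2 values per probe set, made with RMA per the submitters' processing notes; the RMA version and which arrays were normalized with each other are not given in the sources used. No file states the log base; base 2 is what RMA usually writes and fits values of 1.59 to 19.93. Gene symbols come from the platform annotation, and all 19572 matched RefSeq (GRCm38.p6) by Entrez identifier.

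The 33.3% of probe sets with the lowest 8-array means (below 3.937) were removed, which left 14804 for limma 3.58.1 in R 4.3.3. The fit had 1 mean per tissue and arm, a mean-variance trend in eBayes (degrees of freedom: 4 residual, 7.918 prior), two-sided tests and Benjamini-Hochberg adjustment over all tested probe sets. The interaction term tested the difference between tissues. The fit was tested on simulated data in which 200 probe sets differed in cortex. It called 0 of the 200 at a 2-fold difference. At 4-fold it called 138 (69%), with 4 false calls. A missing call therefore does not show that a gene had no change near 2-fold. A gene with several probe sets is represented in a list by the one with the highest mean.

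Genes were named by rule: every call; the 15 per direction of smallest unadjusted p under 0.05, with at least a 1.5-fold difference, no overlap between arms and both means above the filter limit; the 8 per direction by the same conditions without the fold in the highest 10% by cortex level; up to 4 of smallest p per list described, with Chrna4, Chrna7, Chrnb2, Fos, Arc, Npas4 and Nr4a1; the 8 per arm with the largest gap between arrays; and the 5 per direction of smallest p for the tissue difference. Other list members given by value were picked after their values were seen. The genes, the lists and the rule were chosen with earlier results of these data known. The alternatives were other filters, quantile normalization, median centring, no trend, array weights, a replicate block, cortex arrays only and each array left out in turn. Precision is limited by having 2 arrays per group.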

Additional observations from a re-analysis of the deposited data

How the results depend on the processing

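The number of probe sets that passed in cortex was 1 as reported, 0 after quantile normalization or without the trend, and 2 with array weights, a replicate block or cortex arrays only, where the second had no gene symbol. It was 0 to 2 when single arrays were left out. Nr4a2 kept its direction throughout, with differences of -1.90 after quantile normalization, -2.00 without the trend and -2.21 to -1.81 without single arrays. The number with unadjusted p under 0.05 was 479 to 1104 when single arrays were left out. Calls for a difference between tissues numbered 3 with the replicate block and 0 to 30 without single arrays. Control and exposed cortex share only the number 6, so the replicate block joined the 2 tissues of an arm and number (consensus correlation 0.19) and did not pair the arms. It kept the Nr4a2 call.

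Of 203 named or listed genes examined, 6 changed sign in at least 1 alternative and none but Nr4a2 passed the threshold in any. Without single arrays the differences ran from -0.53 to 0.14 for Chrnb2, -2.28 to 0.56 for Fos, -1.97 to 0.32 for Nr4a1, -2.45 to 0.86 for Npas4 and -10.2 to 1.03 for Ttr. Chrna4 was 0.017 after quantile normalization. Most of the 203 genes were picked by a small p or by arms that did not overlap. A gene whose arms do not overlap keeps its sign without any 1 array. The count of 6 was thus partly fixed by the choice of genes and does not measure stability. With 2 arrays per arm, differences near those between arrays of 1 arm could not be resolved.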

Other observations

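Probe sets without a gene symbol lie outside the named genes. Of 1563 tested, 99 (6.33%) had an unadjusted p under 0.05 in cortex. The one of smallest p, TC1700001227.mm.2, was picked after its values were seen. It had log2 values of 5.78 and 4.01 in the control cortex arrays, and of 11.53 and 13.52 after exposure, a difference of 7.63 (SE 1.08, limma adjusted p = 0.0996). The hippocampus ran the other way, with 9.55 and 5.58 for control against 3.34 and 5.18 for exposed arrays. It was the second probe set that passed in cortex with array weights, with the replicate block and with cortex arrays only. What it detects is not given in the sources used here.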
